A study of Mus musculus with 6 samples.

Results

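The genes described here are 10 secreted acute phase genes, Orm1, Orm2, Orm3, Saa1, Saa2, Saa4, Hp, Lcn2, Fgl1 and Serpina3n. They were chosen by symbol from a table of 15960 genes, and all 10 were present and passed the filter on low values. Liver RNA had been sequenced from 3 Cyp2e1-/- libraries (knockout) and 3 Cyp2e1+/+ libraries (wild type) of strain C57BL/6, at an age of 22 weeks and after 14 weeks of high-fat diet. Both genotypes carried the same labels for strain, age and diet, so no group on another diet is compared here. The kind of Cyp2e1 allele, the sex of the mice and whether a library is 1 mouse were left unstated in the labels, so each p-value speaks of spread among libraries, which may be technical. Levels are in FPKM, a fragment count per length of transcript and per depth of library.

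The acute phase response is the change in plasma proteins that the liver makes after infection, injury or inflammation. Interleukin-6 acts on hepatocytes through gp130, JAK kinases and STAT3, interleukin-1 acts through NF-κB, C/EBP factors take part in both, and glucocorticoids act together with these cytokines. Orosomucoids, serum amyloid A, haptoglobin and lipocalin-2 are classical products of this response in mice, and Saa1 and Saa2 are known for very large swings, whereas Saa4 is known as the constitutive serum amyloid A of hepatocytes. In obesity a low-grade form of this state is well described in liver and fat.

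The members sit in 2 small gene clusters and at 4 other places of the GRCm38 assembly. Orm1 (chr4:63344556-63348163), Orm3 (chr4:63356069-63359506) and Orm2 (chr4:63362449-63365877) lie side by side. Saa4 (chr7:46727992-46732603), Saa1 (chr7:46740497-46743181) and Saa2 (chr7:46751833-46754313) lie in a row, with Saa3 next to them. Lcn2 is at chr2:32384637-32387739, Fgl1 at chr8:41191434-41217978, Hp at chr8:109575128-109579172 and Serpina3n at chr12:104406646-104414334.

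The 250 bases before the transcript start of RefSeq's promoter table are shown for 6 members, because these genes behave differently in the libraries although some are near copies of each other. Saa1 and Saa2 were the members whose wild type replicate 1 exceeded the other wild type libraries by the most, Saa4 is their neighbour that did not, Orm2 and Orm3 are paralogs with unlike patterns, and Lcn2 was high in replicate 1 of both genotypes. The sequences are RefSeq's, GRCm38.p6, written 5′ to 3′ on the strand of the gene. For Saa1 and Orm3 the gene span given above reaches past the start used in that table. Most of the Saa1 stretch and part of the Orm3 stretch therefore lie inside the span. The stretches are Saa1 chr7:46742981-46743230 (minus), Saa2 chr7:46751583-46751832 (plus), Saa4 chr7:46732604-46732853 (minus), Orm2 chr4:63362199-63362448 (plus), Orm3 chr4:63355908-63356157 (plus) and Lcn2 chr2:32387740-32387989 (minus). Capitals mark matches to a C/EBP motif (TTGCNNAA, either strand) or to a TATA motif (TATAAA, either strand).
Saa1: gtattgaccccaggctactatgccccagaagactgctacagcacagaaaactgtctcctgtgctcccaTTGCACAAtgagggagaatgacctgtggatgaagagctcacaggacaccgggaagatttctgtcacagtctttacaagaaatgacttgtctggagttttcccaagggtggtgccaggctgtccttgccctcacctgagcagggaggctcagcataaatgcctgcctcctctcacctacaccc
Saa2: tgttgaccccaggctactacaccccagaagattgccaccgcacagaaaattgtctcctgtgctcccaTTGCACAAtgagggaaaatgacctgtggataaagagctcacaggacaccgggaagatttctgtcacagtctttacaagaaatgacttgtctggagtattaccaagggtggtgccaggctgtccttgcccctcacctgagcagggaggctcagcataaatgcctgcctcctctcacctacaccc
Saa4: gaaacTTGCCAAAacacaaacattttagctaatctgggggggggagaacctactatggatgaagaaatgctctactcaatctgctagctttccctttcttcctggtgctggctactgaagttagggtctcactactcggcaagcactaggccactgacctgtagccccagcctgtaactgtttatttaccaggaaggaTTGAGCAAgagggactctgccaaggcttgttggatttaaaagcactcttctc
Orm2: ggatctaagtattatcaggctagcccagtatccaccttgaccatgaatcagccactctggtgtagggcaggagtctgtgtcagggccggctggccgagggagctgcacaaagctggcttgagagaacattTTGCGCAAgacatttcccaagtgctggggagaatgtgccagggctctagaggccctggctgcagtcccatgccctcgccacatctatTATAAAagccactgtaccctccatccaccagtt
Orm3: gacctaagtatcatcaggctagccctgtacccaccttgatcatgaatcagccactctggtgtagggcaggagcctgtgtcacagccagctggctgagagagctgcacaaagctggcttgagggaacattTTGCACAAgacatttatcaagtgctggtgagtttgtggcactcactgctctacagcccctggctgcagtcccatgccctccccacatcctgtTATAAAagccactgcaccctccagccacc
Lcn2: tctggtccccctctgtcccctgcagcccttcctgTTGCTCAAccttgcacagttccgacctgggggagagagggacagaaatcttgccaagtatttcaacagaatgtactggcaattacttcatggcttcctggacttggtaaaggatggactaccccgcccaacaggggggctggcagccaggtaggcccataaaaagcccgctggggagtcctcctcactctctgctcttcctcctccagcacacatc

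All 6 stretches held a match to the C/EBP motif, and Saa4 held 2. Of 32851 RefSeq starts, 9.56% held this motif in the same window. The window of the member Serpina3n, which is not shown, held no match to it, and Orm1, Hp and Fgl1 had no promoter entry. Saa1 and Saa2, like Orm2 and Orm3, have much the same sequence here, so their matches are not independent. In Saa1 and Saa2 the match was the same word, TTGCACAA, 175 and 176 bases before the start, and Orm3 had that word 114 bases before its start. Orm2 had TTGCGCAA, 113 bases before its start. TATAAA stood in Orm2 and Orm3, at 28 and 24 bases before the start, and in 12.4% of all starts. The C/EBP match of Saa1 and the TATAAA of Orm3 lie before the start used here but inside the gene spans given above. A STAT3 motif (TTCNNNGAA, in 7.02% of starts) and an NF-κB consensus motif (in 4.11%), searched on both strands, had no match in the 6 windows, and Serpina3n had a match to the second, GGGCTTTTCC, 162 bases before its start. These are matches of letters and say nothing of binding. The Saa1 and Saa2 stretches were 95.2% identical and those of Orm2 and Orm3 87.2%, whereas Saa1 and Saa4 shared 50.8%.

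The transcripts of these paralogs overlap in sequence as well. Orm1 and Orm2 shared 27.5% of their 31-base words, Orm3 shared 4.71% of its words with Orm1 and 9.42% with Orm2, and Saa1 shared 26.8% of its words with Saa2. The authors' way of dividing reads between such genes was left unstated in the labels. The split among Orm1, Orm2 and Orm3 and between Saa1 and Saa2 is therefore uncertain. Orm3 averaged 5.44 FPKM (knockout) and 17.0 (wild type), against 379 and 690 for Orm1. Whether reads of Orm1 add to the Orm3 values was not tested.

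The targeted gene followed the labels. Cyp2e1, a cytochrome P450 of hepatocytes, stood at 254, 247 and 271 FPKM in knockout replicates 1 to 3 and at 7427, 5942 and 6071 in wild type (log2 difference -4.64, SE 0.13; limma, adjusted p = 6.7e-08). The steps between low FPKM values put the depth at about 9450000 to 10070000 fragments, and 12320000 in knockout replicate 1. This is an estimate. Of the low values used, 66.4% to 73.1% lay within 0.15 of a whole fragment, where chance gives 30% at a fixed depth. The depth was chosen to fit these same values, so chance would give more than 30% here. Replicate 1 of both genotypes stood apart over all genes tested, with limma sample quality weights of 0.368 (knockout) and 0.291 (wild type) against 1.10 to 2.86 in the other 4 libraries. Genotype differences are therefore given with all 6 libraries and without replicate 1 of both genotypes, which leaves 2 against 2. The libraries left out were those that stood apart in these same data, so the error of the second fit is lowered by that choice. Its adjusted p-values may be too small and are given as a description. Hepatocyte markers were high in every library: the summed level of 7 ranged from 7643 to 9485 FPKM, and Apoc3, a lipoprotein component, averaged 3411 ± 390 FPKM (knockout) and 3422 ± 463 (wild type; SD, n = 3 here and below).

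With all 6 libraries, the orosomucoid Orm3 fell in the knockout and 9 of the 10 members did not pass the test (limma on log2(FPKM + 1), Benjamini-Hochberg over 9968 genes, threshold 0.05). Of all genes tested, 0.762% passed, 0.472% with a rise and 0.291% with a fall. The median log2 difference of the members, knockout minus wild type, was -0.51, against -0.028 over all genes tested. Of the 10 members 7 were negative, as were 5567 of all 9968 genes tested. In Orm1 and Orm3 all knockout values lay below all wild type values, which held for 10% of all genes tested (1001 of 9968). In Saa4 all lay above, which held for 5.32%. When replicate 1 of both genotypes was left out, 4 members fell (Orm1, Orm2, Orm3 and Lcn2), 3 rose (Saa1, Saa4 and Fgl1) and 3 did not pass, and the median was -0.09. There, 11.9% of all genes tested passed, 6.92% with a rise and 4.95% with a fall.

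**Figure D1:**
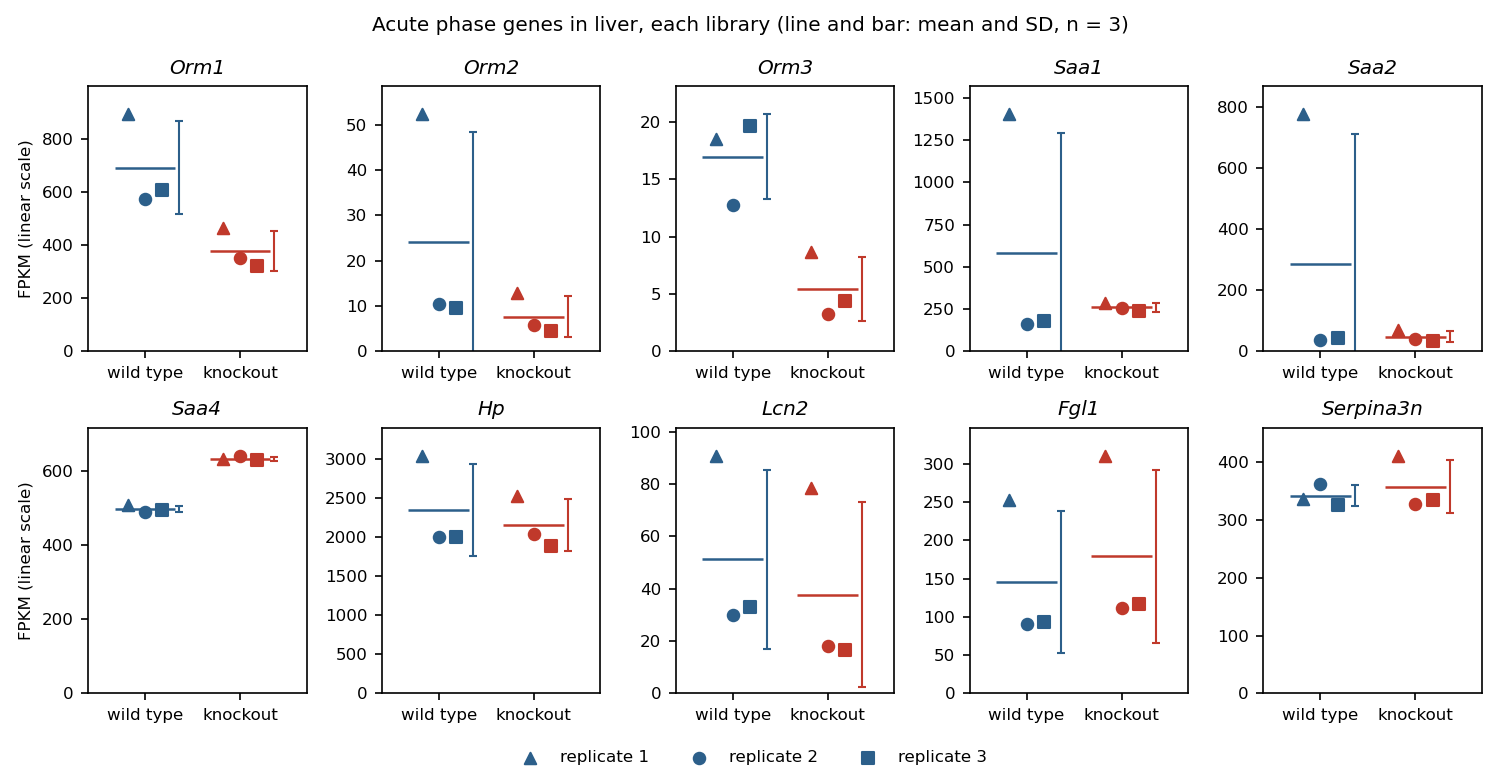
FPKM (linear axis from 0) of the 10 acute phase genes in each library, wild type in blue and knockout in red, with replicates 1, 2 and 3 as triangles, circles and squares, and the mean (line) and SD (bar, n = 3; the lower ends for Orm2, Saa1 and Saa2 in wild type run below 0 and are not drawn). The 3 wild type values of Orm1 and Orm3 lie above the 3 knockout values, the Saa4 values are reversed, and the triangle stands high in Saa1 and Saa2 of wild type and in Lcn2 and Fgl1 of both genotypes.

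Orosomucoids, also called alpha-1-acid glycoproteins, are small plasma lipocalins that bind basic drugs and lipids. Orm1, the main one in these livers, stood at 465, 351 and 322 FPKM in knockout replicates 1 to 3 and at 891, 572 and 607 in wild type. The lowest wild type value exceeded the highest knockout value, and within each genotype replicate 1 was the highest. The means were 379 ± 75.6 and 690 ± 175 FPKM, so wild type was 1.82 times the knockout. The log2 difference was -0.85 (SE 0.20) and did not pass with all libraries (limma, adjusted p = 0.11). It passed with the replicate as a block (limma, adjusted p = 0.032), a fit in which 0.722% of all genes passed, and without replicate 1 of both genotypes (log2 difference -0.81, SE 0.07; limma, adjusted p = 1.7e-04). Over 16 alternatives the difference ran from -1.01 to -0.65 and the adjusted p (limma) from 1.7e-04 to 0.43.

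Orm3 was a minor transcript, at 8.63, 3.29 and 4.4 FPKM in knockout replicates 1 to 3 and at 18.5, 12.8 and 19.6 in wild type. The genotypes did not overlap, and the knockout library nearest to wild type was replicate 1. Means were 5.44 ± 2.82 and 17.0 ± 3.68 FPKM, a log2 difference of -1.54 (SE 0.28; limma, adjusted p = 0.040). At the estimated depths these levels stand for about 21 to 70 fragments in a knockout library and 85 to 126 in a wild type library. How many of these fragments also match Orm1 or Orm2 was not tested. The call rested on the libraries and settings used. It held in 7 of 16 alternatives and was lost on leaving out knockout replicate 2 or 3 or any of the wild type libraries (limma, adjusted p = 0.16, 0.14, 0.091, 0.057 and 0.17), although the difference stayed between -1.88 and -1.09 in all 16. Without replicate 1 of both genotypes it was -1.81 (SE 0.20; limma, adjusted p = 8.6e-04).

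Orm2 stood at 12.8, 5.81 and 4.45 FPKM in knockout replicates 1 to 3 and at 52.3, 10.5 and 9.65 in wild type. Knockout replicate 1 lay above wild type replicates 2 and 3, so the genotypes overlapped. Wild type replicate 1 was 5.19 times the mean of the other wild type libraries and knockout replicate 1 was 2.49 times the mean of its own. With all libraries the difference did not pass (log2 -1.22, SE 0.56, 95% interval -2.47 to 0.02; limma, adjusted p = 0.51), and without replicate 1 of both genotypes it passed (log2 -0.86, SE 0.15; limma, adjusted p = 0.0073; range over alternatives 0.0073 to 0.95). On leaving out 1 library the difference ran from -1.63 (without wild type replicate 3) to -0.47 (without wild type replicate 1).

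Within the orosomucoid sum, the share of Orm3 was 1.78%, 0.915% and 1.33% in knockout replicates 1 to 3 and 1.93%, 2.14% and 3.08% in wild type. The 3 knockout shares lay below the 3 wild type shares, a difference of -1.04 percentage points (exact permutation test, two-sided, p = 0.1, the smallest that 3 against 3 allows). The 3 orosomucoids together took 0.106% to 0.154% of the wild type FPKM sum and 0.0572% to 0.0828% of the knockout sum.

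**Figure D2:**
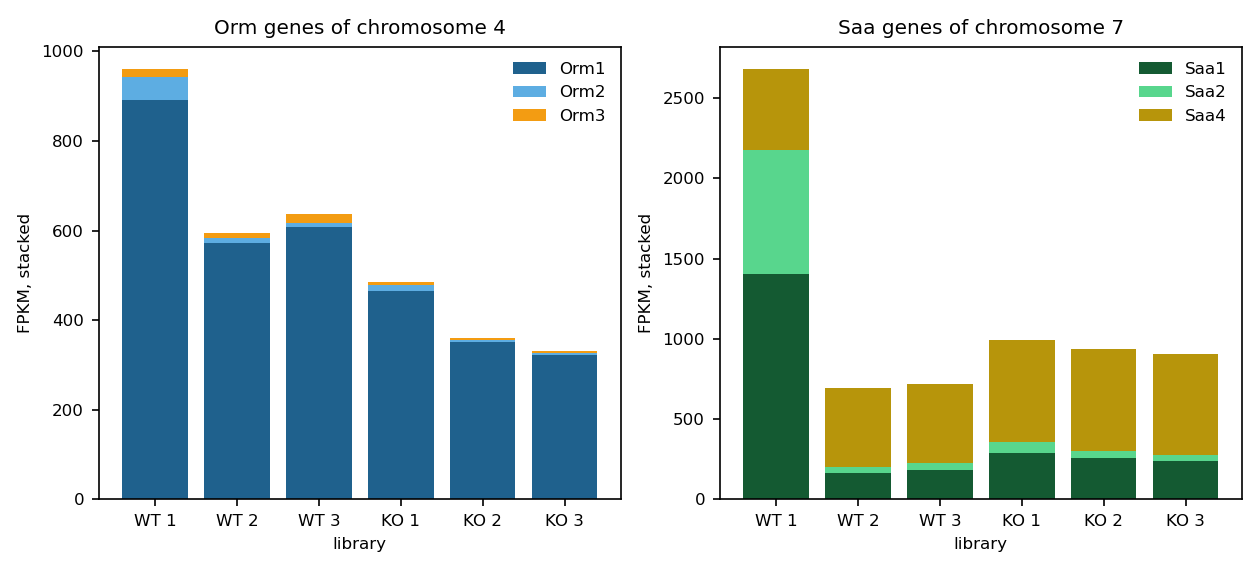
Stacked FPKM of Orm1, Orm2 and Orm3 (left) and of Saa1, Saa2 and Saa4 (right) in each library, from wild type (WT) replicate 1 to knockout (KO) replicate 3. Orm1 makes up most of the left bars, which reach 595 to 962 FPKM (wild type) and 330 to 486 (knockout), and on the right Saa1 and Saa2 fill the bar of wild type replicate 1 while Saa4 differs little within a genotype.

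Serum amyloid A proteins are apolipoproteins of high-density lipoprotein during inflammation. Saa1 stood at 289, 256 and 238 FPKM in knockout replicates 1 to 3 and at 1403, 163 and 179 in wild type. Wild type replicate 1 was 8.20 times the mean of the other wild type libraries, and these 2 lay below all knockout libraries. With all 6 libraries the log2 difference was -0.41 (SE 0.65, 95% interval -1.87 to 1.05; limma, adjusted p = 0.92). Without replicate 1 of both genotypes it turned to 0.53 (SE 0.07; limma, adjusted p = 0.0027), and without wild type replicate 1 alone it was 0.60 (SE 0.12; limma, adjusted p = 0.057), so 1 library set the direction. The adjusted p (limma) ran from 0.0027 to 1.0 over the alternatives.

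Saa2, the near copy of Saa1, stood at 70.4, 41.6 and 34.3 FPKM in knockout replicates 1 to 3 and at 775, 38.3 and 44.8 in wild type. Apart from wild type replicate 1, which was 18.7 times the mean of the other wild type libraries, the 2 genotypes overlapped. The difference did not pass with all libraries (log2 -1.23, SE 0.92; limma, adjusted p = 0.73) or without replicate 1 (log2 -0.13, SE 0.12; limma, adjusted p = 0.53). Saa2 made up 35.6% of the Saa1 and Saa2 sum in wild type replicate 1, 19% and 20% in the other wild type libraries, and 19.6%, 14.0% and 12.6% in knockout replicates 1 to 3 (exact permutation test between genotypes, two-sided, p = 0.2). The 2 genes together reached 2177 FPKM in wild type replicate 1, or 0.349% of the summed FPKM, against 201 to 359 FPKM in the other 5 libraries.

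Saa4 had a narrow spread and the opposite direction. It stood at 633, 641 and 630 FPKM in knockout replicates 1 to 3 and at 509, 491 and 497 in wild type. The groups were 634 ± 5.56 and 499 ± 9.16 FPKM, so the knockout was 1.27 times wild type, and replicate 1 lay close to the others in both genotypes (0.996 and 1.03 times their mean). The difference of 0.35 (SE 0.11) did not pass with all libraries (limma, adjusted p = 0.28). It passed without replicate 1 of both genotypes (0.36, SE 0.05; limma, adjusted p = 0.0040) and with sample quality weights (0.36, SE 0.08; limma, adjusted p = 0.012), and in 14 of 16 alternatives it did not. The limma error draws on genes of like abundance, and here it exceeds the spread of the 3 Saa4 values.

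Haptoglobin, encoded by Hp, binds free haemoglobin and was the most abundant member. It stood at 2530, 2040 and 1890 FPKM in knockout replicates 1 to 3 and at 3032, 2004 and 2005 in wild type. Replicate 1 was the highest library of each genotype, and the other 4 libraries lay close together. The difference was -0.11 (SE 0.19, 95% interval -0.54 to 0.32; limma, adjusted p = 0.93), and without replicate 1 of both genotypes -0.03 (SE 0.06; limma, adjusted p = 0.78).

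Lipocalin-2, encoded by Lcn2, sequesters bacterial siderophores and is made by stressed hepatocytes as well as by neutrophils. It stood at 78.7, 18.1 and 16.5 FPKM in knockout replicates 1 to 3 and at 90.6, 29.97 and 33.1 in wild type. Replicate 1 was 4.56 times the mean of the other knockout libraries and 2.87 times that of the other wild type libraries. In each pair of like-numbered libraries the knockout was the lower, but with all libraries the difference did not pass (log2 -0.62, SE 0.56, 95% interval -1.88 to 0.64; limma, adjusted p = 0.79). Without replicate 1 of both genotypes it passed (log2 -0.83, SE 0.10; limma, adjusted p = 0.0013; range over alternatives 0.0013 to 1.0), with wild type at 1.82 times the knockout. On leaving out 1 library the difference ran from -1.33 (without knockout replicate 1) to -0.12 (without wild type replicate 1). Of the neutrophil markers, 11 were in the table and 8 of them stayed under 1 FPKM in every library. The sum of all 11 was 20.6 and 23.0 FPKM in the replicate 1 libraries of knockout and wild type, and 5.11 to 7.69 in the other 4, and 0 to 3 markers per library were listed at 0. The 3 that reached 1 FPKM in some library were S100a8, S100a9 and Retnlg, the last at 1.61 FPKM in knockout replicate 1. Most of the replicate 1 sums came from S100a8 and S100a9, at 8.75 and 7.19 FPKM in the knockout and 10.2 and 10.2 in wild type. The granule genes Elane and Mpo did not exceed 0.37 and 0.16 FPKM (Retnlg, Elane and Mpo named after their values were seen). The part of neutrophils in the Lcn2 values was not tested.

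Fgl1 encodes a fibrinogen-like protein that hepatocytes secrete, known as hepassocin and as a ligand of the immune receptor LAG3. It stood at 310, 111 and 117 FPKM in knockout replicates 1 to 3 and at 252, 90.9 and 92.9 in wild type. The excess in replicate 1 was of like size in both genotypes, 2.72 and 2.75 times the mean of the others. In each pair of like-numbered libraries the knockout was the higher, a difference of 0.30 (SE 0.45; limma, adjusted p = 0.91) with all libraries and 0.31 (SE 0.07; limma, adjusted p = 0.024) without replicate 1 of both genotypes. Leaving out knockout replicate 1 alone turned it to -0.18 (limma, adjusted p = 0.88), and leaving out wild type replicate 1 alone raised it to 0.79 (limma, adjusted p = 0.37).

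Serpina3n, a secreted serine protease inhibitor related to human antichymotrypsin, stood at 409, 327 and 334 FPKM in knockout replicates 1 to 3 and at 337, 361 and 326 in wild type. The groups overlapped and the difference was 0.06 (SE 0.13, 95% interval -0.23 to 0.34; limma, adjusted p = 0.95). Its transcripts shared 5.90% or less of their 31-base words with any of 6 related Serpina3 genes compared.

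**Figure D3:**
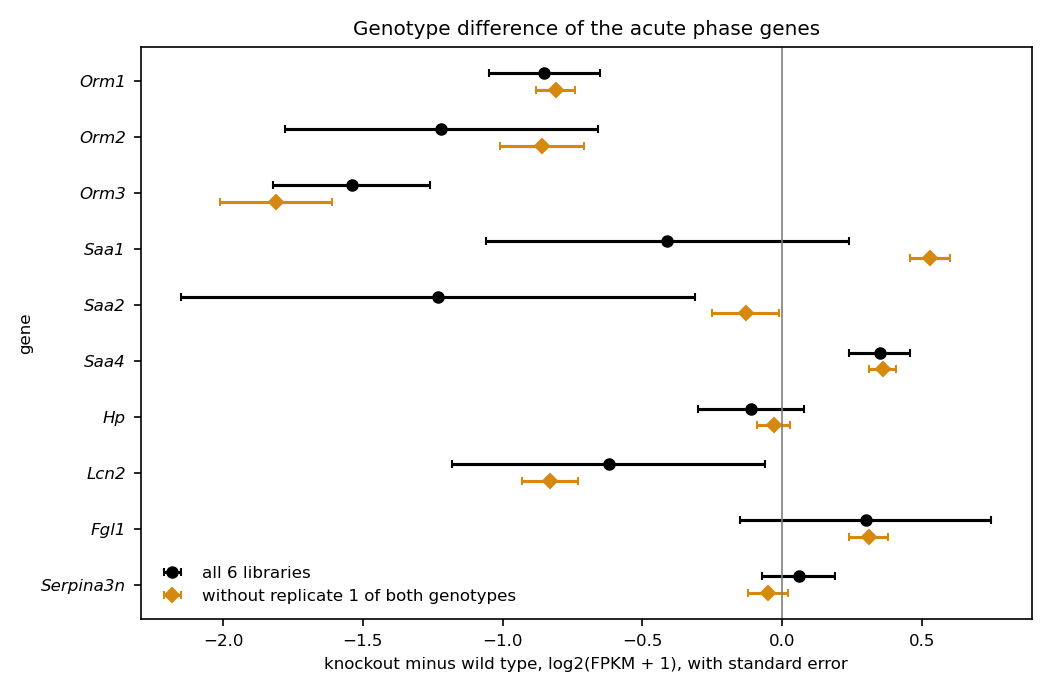
Genotype difference (knockout less wild type, log2(FPKM + 1)) with its standard error, for the 10 genes, with all 6 libraries (black circles) and without replicate 1 of both genotypes (orange diamonds). The Orm genes lie below 0 in both fits, Saa4 lies above 0 in both, and Saa1 moves from -0.41 to 0.53.

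Replicate 1 was set beside the other libraries of its genotype for all genes tested, as a description with no test and with a fold chosen after the values were seen. In 3 members, Orm2, Lcn2 and Fgl1, replicate 1 was at least 2-fold above both other libraries in both genotypes, a pattern that 0.1% of all genes tested (10 of 9968) showed. The other 7 of those 10 genes included S100a8 and S100a9, which encode the calprotectin subunits. S100a8 stood at 8.75, 3.34 and 0.77 FPKM in knockout replicates 1 to 3 and at 10.2, 1.41 and 2.59 in wild type. Within wild type alone, 5 members passed this fold (Saa1 and Saa2 in addition), against 0.702% of all genes, and within the knockout 3 did, against 0.923%. In 7 members replicate 1 was above both other libraries in both genotypes by any amount, against 11% of all genes (1096 of 9968), and the 3 others were Orm3, Saa4 and Serpina3n.

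The size of the step in replicate 1 differed between genotypes by gene. On the log2(FPKM + 1) scale it was 3.03 in wild type and 0.23 in the knockout for Saa1, 4.19 and 0.88 for Saa2, and 2.27 and 1.18 for Orm2. For Lcn2 it was 1.5 in wild type and 2.13 in the knockout, and for Fgl1 1.45 and 1.44. Each step rests on 1 library, so the difference between genotypes was not tested. The summed FPKM of the 10 genes was 4805, 3793 and 3590 in knockout replicates 1 to 3 and 7360, 3773 and 3814 in wild type, and did not differ between genotypes beyond the spread (exact permutation test on the log2 sum, two-sided, p = 0.6; the smallest that 3 against 3 allows is 0.1).

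**Figure D4:**
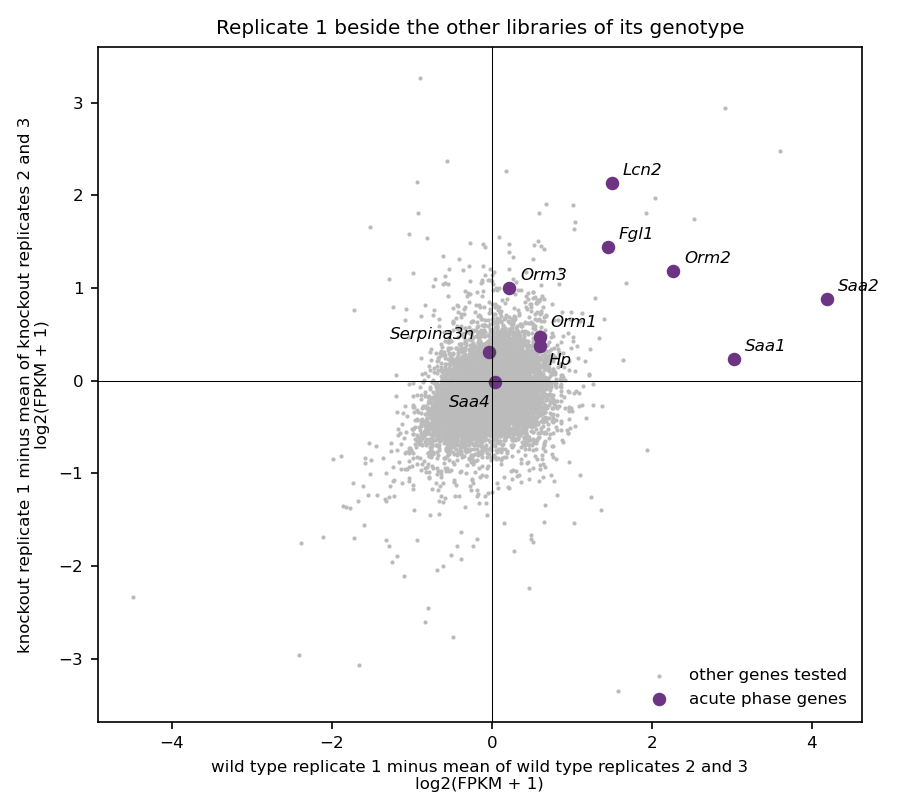
Each point is a tested gene, placed by how far replicate 1 lay above the mean of replicates 2 and 3 of its genotype on the log2(FPKM + 1) scale, wild type on the horizontal axis and knockout on the vertical axis. Saa1 and Saa2 lie far to the right (3.03 and 4.19) and low on the vertical axis (0.23 and 0.88), Lcn2, Fgl1 and Orm2 lie high on both, and Saa4 and Serpina3n lie near 0 on the horizontal axis.

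Around these genes, 94 others of the acute phase pathway or induced by glucocorticoids were tested, in 6 lists. With all libraries 4 of the 94 passed, against 0.762% of all genes tested. Among the cytokines, Il6 was listed at 0 in 5 libraries and at 0.11 FPKM in wild type replicate 3, and Tnf at 0.05 FPKM in knockout replicate 1 and 0 elsewhere (both named after their values were seen). Only Il1a and Il1b were tested, and neither passed with all libraries: Il1b stood at 0.72, 1.01 and 0.59 FPKM in knockout replicates 1 to 3 and at 0.94, 2.57 and 1.66 in wild type, and Il1a at 1.09, 0.50 and 0.90 against 0.73, 1.55 and 1.71. For both, replicate 1 was the lowest wild type library. With both replicate 1 libraries left out, Il1b fell (log2 difference -0.79, SE 0.21; limma, adjusted p = 0.043) and Il1a did not pass (-0.64, SE 0.18; limma, adjusted p = 0.055). In bulk tissue, fewer cells of a type and less RNA per cell cannot be told apart.

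Of 8 tested receptors and antagonists none passed with all libraries (median log2 difference 0.02), and 1 rose and 1 fell without replicate 1 of both genotypes. Over all genes tested 6.92% rose and 4.95% fell in that second fit. Il1rap, a shared chain of interleukin-1 family receptors, averaged 74.1 ± 5.81 FPKM (knockout) and 75.9 ± 2.19 (wild type). Lifr, a partner of gp130, stood at 28.7, 57.3 and 59.3 FPKM (knockout replicates 1 to 3) and 31.4, 80.6 and 78.7 (wild type). Replicate 1 was thus its lowest library in both genotypes. Lifr did not pass with all libraries (log2 difference -0.34, limma, adjusted p = 0.85). It was the receptor that fell without replicate 1 of both genotypes (-0.44, SE 0.07, limma, adjusted p = 0.0061). Of 22 transducers and transcription factors none passed (median 0.12, 16 positive, against 4401 of all 9968 genes tested). Without replicate 1, 3 of them rose and 1 fell. The C/EBP factors Cebpb and Cebpa averaged 153 ± 46.0 and 109 ± 18.8 FPKM (knockout) and 112 ± 21.6 and 90.9 ± 24.1 (wild type). Their differences did not pass with all libraries (log2 0.42 and 0.27; limma, adjusted p = 0.59 and 0.71) and passed without replicate 1 of both genotypes (0.82 and 0.63; limma, adjusted p = 0.0020 and 0.0012).

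Of 37 other positive acute phase genes, 2 rose and none fell with all libraries. Of the 37, 22 were negative (median -0.12), against 5567 of all 9968 genes tested. Both that rose were metallothioneins, metal-binding proteins that zinc and glucocorticoids also induce. Mt2 stood at 198, 173 and 141 FPKM in knockout replicates 1 to 3 and at 36.6, 18.7 and 21.6 in wild type (log2 difference 2.73, SE 0.23; limma, adjusted p = 3.2e-04), and it passed in all 16 alternatives. Mt1 stood at 560, 335 and 387 FPKM against 222, 109 and 97.3 (log2 difference 1.64, SE 0.29; limma, adjusted p = 0.039) and passed in 10 of 16 alternatives, with adjusted p (limma) from 8.5e-06 to 0.18. In neither did the genotypes overlap. Leaving out both replicate 1 libraries, 7 of the 37 rose and 10 fell (median -0.16), where 6.92% of all genes tested rose and 4.95% fell.

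Of 14 negative acute phase genes, which fall in this response, Serpina6 fell in the knockout and 13 did not pass (median -0.11), whereas 3 rose and 3 fell with both replicate 1 libraries left out. Serpina6 encodes corticosteroid-binding globulin and averaged 115 ± 10.6 FPKM (knockout) and 185 ± 16.5 (wild type). The groups did not overlap (log2 difference -0.68, SE 0.12; limma, adjusted p = 0.043), and the call was lost with the replicate as a block (limma, adjusted p = 0.11). Of 11 glucocorticoid-induced genes all were positive (median 0.43), from 0.02 in Hsd11b1 to 1.39 in Pck1 (both named after their values were seen). Of all 9968 genes tested, 4401 were positive. Among the 11, Fkbp5, a co-chaperone of the glucocorticoid receptor, rose. It stood at 44.9, 38.3 and 41.1 FPKM in knockout replicates 1 to 3 and at 23.0, 26.3 and 23.0 in wild type (log2 difference 0.76, SE 0.12; limma, adjusted p = 0.026; 0.071 with the replicate as a block). Leaving out both replicate 1 libraries, 6 of the 11 rose and none fell (median 0.62), where 6.92% of all genes tested rose and 4.95% fell.

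**Figure D5:**
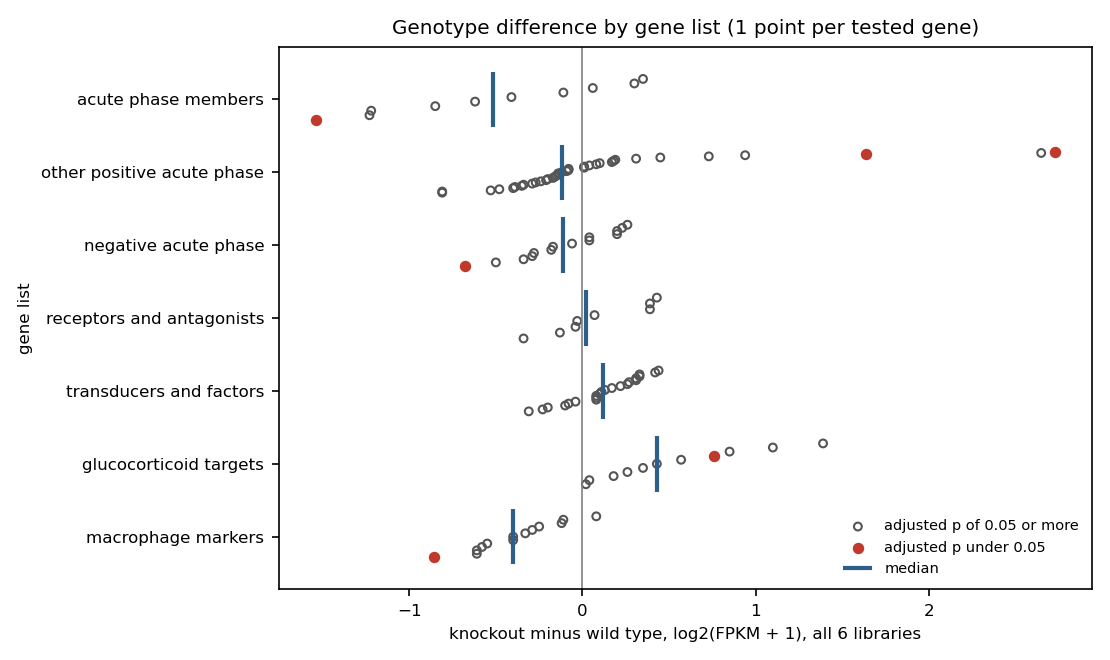
Genotype difference (knockout less wild type, log2(FPKM + 1)) of each tested gene in 6 acute phase lists and among the macrophage markers, with all 6 libraries, filled red where the adjusted p (limma) is under 0.05 and open otherwise, and a blue line at each median. The members have a median of -0.51, the other positive acute phase genes one of -0.12 and the 11 glucocorticoid-induced genes one of 0.43.

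Of 13 tested macrophage markers 12 were negative (median -0.40), as were 5567 of all 9968 genes tested. Lyz2, a lysozyme of myeloid cells, fell, with means of 17.3 ± 3.31 FPKM (knockout) and 31.9 ± 1.27 (wild type). Its log2 difference was -0.86 (SE 0.15, limma, adjusted p = 0.038, and 0.082 with the replicate as a block). The summed level of all 15 macrophage markers was 252, 186 and 146 FPKM in knockout replicates 1 to 3 and 252, 270 and 274 in wild type. Without replicate 1 of both genotypes 9 of the 13 fell, against 4.95% of all genes tested. The part of macrophages in the orosomucoid differences was not tested. Lymphocyte markers summed to 1.63 to 3.19 FPKM, and none of 9 passed the filter. Of the neutrophil markers S100a8 and S100a9 were tested and neither passed, and S100a9 stood at 7.19, 2.69 and 3.24 FPKM in knockout replicates 1 to 3 and at 10.2, 2.81 and 2.19 in wild type. Adipocyte markers summed to 638 to 770 FPKM (knockout) and 677 to 1050 (wild type), highest in wild type replicate 1. Nearly all of this sum was Car3 (698 ± 65.9 and 814 ± 198 FPKM, knockout first), which stood at 1040 FPKM in wild type replicate 1. Fabp4 averaged 8.73 ± 1.21 and 7.38 ± 2.12 FPKM. Adipoq and Cfd did not exceed 0.19 and 0.13 FPKM in any library (both named after their values were seen). Of 6 cholangiocyte markers only Spp1 was tested (18.3 ± 1.35 and 27.0 ± 4.44 FPKM; log2 difference -0.53; limma, adjusted p = 0.19). Of the 7 hepatocyte markers none passed with all libraries (median log2 difference 0.10), and Apoh stood at 1682 ± 63.3 and 1777 ± 267 FPKM. Cps1, of the urea cycle, and Hpd, of tyrosine breakdown, had all knockout values above all wild type values (log2 differences 0.56 and 0.51; limma, adjusted p = 0.20 and 0.23; named after their values were seen). That order held for 5.32% of all genes tested. With both replicate 1 libraries left out, 6.92% of all genes tested rose, and 4 of the 7 hepatocyte markers did (Cps1, F2, Tdo2 and Hpd), while none fell. Their part in the members' differences was not tested.

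No tested neighbour of either cluster passed. Beside the Orm genes, Kif12, Akna and Whrn stayed under the filter, and Col27a1, a fibrillar collagen, did not pass (log2 difference 0.17; limma, adjusted p = 0.92). Beside the Saa genes, Sergef, Saal1, Hps5 and Gtf2h1 had log2 differences of -0.10, -0.01, -0.03 and -0.24.

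Likeness to Orm3 and Saa1 was ranked among 828 tested genes whose values spanned at least 1 on the log2 scale. The members were left out of this ranking, so Saa2 was not compared with Saa1. The genes with the pattern most like Orm3 over the 6 libraries were Chordc1, Anxa5, Ifi30, Prg4 and Gm15408 (Pearson r 0.958, 0.953, 0.952, 0.949 and 0.948, n = 6). Those most like Saa1 were Ell3, Fuom, Ropn1l, Lsm5 and Galt (Pearson r 0.963, 0.924, 0.920, 0.920 and 0.916, n = 6). These were picked as the highest of many and are given as a description, since all share the same 6 libraries.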

How the data were processed

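Liver RNA of 6 samples was sequenced, 3 per genotype. The deposited table holds FPKM per gene, made by the authors. HISAT and the mm10 build are named, per the submitters' processing notes, while the aligner's version, the annotation and the FPKM program remain not given in the sources used here. No counts were used here, so no count model was fitted, and depth was estimated from the steps between low FPKM values. Of 15960 genes, 9968 reached 1 FPKM in 3 or more of 6 samples and were tested with limma 3.58.1 (R 4.3.3; lmFit, eBayes with trend) on log2(FPKM + 1), which understates the change of low genes. P-values were adjusted by Benjamini-Hochberg over all 9968 genes, with a threshold of 0.05. In all, 47 genes rose and 29 fell. The fit was also run on simulated data with independent noise and no library standing apart. That run checked the size of the estimates and does not speak to error rates in these libraries.

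Single values per sample were compared by exact permutation tests over samples, two-sided. The members and lists were chosen with earlier results of these data known. All members were named, with up to 4 genes past the threshold per other list (smallest adjusted p), or otherwise the 2 with the highest mean FPKM. Also named were the 5 genes outside the members most like Orm3 and Saa1, and the 2 nearest genes on each side of a cluster. Deviations from the group mean correlated over genes between like-numbered libraries (0.300, 0.198 and 0.157 for replicates 1, 2 and 3). Because each exceeded 0.1, the block alternative took them as paired, while the main fit used no block. Knockout replicate 3 with wild type replicate 2 reached 0.212. Deviations balance out within a genotype, so a shift shared by both replicate 1 libraries can also raise the values for replicates 2 and 3. These values do not settle whether replicates 2 and 3 are paired by number. The number comes from the titles and is not explained there. Alternatives covered the pseudocount, filter, scaling, trend, weights, replicate block and each library left out. Promoters came from RefSeq tables of GRCm38.p6, and 31-base words from GENCODE transcripts.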

Additional observations from a re-analysis of the deposited data

How the results depend on the processing

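The targeted gene Cyp2e1 kept its direction and passed in all 16 alternatives. The count of 76 genes past the threshold became 32 with no filter on low values, 1151 with sample quality weights and 1183 without replicate 1 of both genotypes, and ran from 29 to 211 on leaving out 1 library. The 1 member past the threshold became 0 with a pseudocount of 0.1, no filter, quantile normalization or eBayes without trend, 3 with sample quality weights and 7 without replicate 1 of both genotypes, and ran from 0 to 2 on leaving out 1 library. The 4 genes of the 6 other lists became 1 with no filter or without trend, 30 with weights and 36 without replicate 1, and ran from 1 to 11 on leaving out 1 library. The cause was not tested.

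With the replicate block, which uses the pairing by number, 2 members passed, Orm3 and Orm1, and the calls of Serpina6, Fkbp5 and Lyz2 were lost. Pck1 passed under it, and no other call changed among the members and list genes named.

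The members' median of -0.51 turned to 0.07 without wild type replicate 1 and ran from -0.93 to 0.07 on leaving out 1 library. The difference in the log2 sum of the members, -0.232, was 0.0871 without wild type replicate 1. Directions turned for Saa1 with weights (0.34), without wild type replicate 1 (0.60) and with both replicate 1 libraries left out (0.53). They turned for Serpina3n under weights (-0.04), without knockout replicate 1 (-0.04) and with both left out (-0.05), for Fgl1 without knockout replicate 1 (-0.18), and for Saa2 (0.16) and Hp (0.09) without wild type replicate 1. On leaving out 1 library the log2 difference ran from -0.95 to 0.60 for Saa1, -1.99 to 0.16 for Saa2, -0.23 to 0.09 for Hp, -1.63 to -0.47 for Orm2, -1.33 to -0.12 for Lcn2, -0.18 to 0.79 for Fgl1 and -0.04 to 0.12 for Serpina3n. Where 1 arm held 2 libraries the spread was pooled over both arms. At 9450000 to 12320000 fragments a library, Orm3 rests on about 21 to 126 fragments and Orm2 on 28 to 329.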

Other observations

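Among the other positive acute phase genes, some followed the orosomucoids and some the opposite direction (genes chosen after their values were seen). Apcs, which encodes serum amyloid P, stood at 283, 130 and 116 FPKM in knockout replicates 1 to 3 and at 424, 227 and 243 in wild type. Replicate 1 was the highest library of each genotype, and the difference of -0.81 did not pass with all libraries (limma, adjusted p = 0.44) but did without replicate 1 of both genotypes (-0.93; limma, adjusted p = 1.7e-04). Hamp2, a hepcidin gene, stood at 57.1, 64.5 and 56.1 FPKM against 145.1, 93.5 and 84.6, with no overlap (log2 difference -0.81; limma, adjusted p = 0.11), and its difference passed without replicate 1 of both genotypes (-0.56; limma, adjusted p = 0.0065). Hamp, the other hepcidin gene listed, overlapped between genotypes, at 597, 1078 and 1124 FPKM against 1958, 1052 and 957. Its difference did not pass in either fit (-0.48 and 0.13; limma, adjusted p = 0.67 and 0.21). Gadd45g, a stress gene, stood at 4.76, 52.3 and 64.0 FPKM in knockout replicates 1 to 3 and at 7.96, 2.46 and 1.59 in wild type. Knockout replicate 1 lay below wild type replicate 1, and the difference of 2.65 did not pass (limma, adjusted p = 0.25), whereas without replicate 1 of both genotypes it was 4.30 (SE 0.16; limma, adjusted p = 2.4e-06). Pck1 and Tat, gluconeogenic and amino acid enzymes, belong to the list of glucocorticoid-induced genes. Knockout replicate 1 was their lowest knockout library, at 408 and 310 FPKM, and all knockout libraries of Pck1 lay above all wild type libraries. Their differences were 1.39 and 0.85 with all libraries (limma, adjusted p = 0.11 and 0.30) and 1.62 and 1.17 without replicate 1 of both genotypes (limma, adjusted p = 2.7e-06 and 1.6e-05).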
